A study of Mus musculus with 6 samples.

Results

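The kinesin superfamily was described in RNA from hematopoietic stem cells (HSC), the blood-forming cells of the mouse, after sorting. Members were the rows of the deposited gene table whose symbol begins with Kif followed by a digit, and 38 of the 24062 listed genes matched. Those described were selected on their measured level: 33 had a mean of at least 0.25 counts per 1000000 counted reads (CPM) over the 6 libraries. Kif12, Kif2b and the pseudogene Kif4-ps had 0 reads in every library, and Kif26a and Kif26b lay under that level, at means of 0.134 and 0.0579 CPM. The lowest member above it was Kif1c, at 0.783 CPM. The level was taken over both groups together, and Kif1a and Kif27 reached it through the control group alone, with CDKO means of 0.00779 and 0.0312 CPM.

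Both groups of mice carried floxed alleles of the nuclear receptor gene Nr4a1 and lacked Nr4a3 (Nr4a1 fl/fl; Nr4a3-/-). Mice labelled CDKO had Rosa26-ERt2 in addition. As background, such alleles place a Cre that tamoxifen switches on in a locus active in most cell types, so deletion would not be limited to HSC. Control mice lacked it, and all mice received 4 daily tamoxifen injections of 120 mg per kg before HSC were sorted on day 5. Each library was made from a pool of 3 to 5 mice, with 3 libraries in each group, and the labels used here give no age, strain or sort markers. Whether the pools were of separate litters or preparations is not stated, so p-values measure the spread between these pools, and a preparation difference shared within a group cannot be told apart from genotype.

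The libraries held 32863805 to 42772261 counted reads. A count of 0 allowed at most 0.0701 to 0.0913 CPM, by library (3 reads, counting error only). Nr4a1 stood at 15.2, 13.4 and 12.9 CPM in the control pools and at 8.52, 9.76 and 9.12 CPM in the CDKO pools, and Nr4a3 had 0 reads in all 6. All 14 genes found of a list used to describe HSC, Cd34 and Flt3 among them, had reads in every library. Reads of these genes do not by themselves show which cells the pools held. Of the 14, 5 were higher and 7 lower in CDKO pools (limma adjusted p under 0.05, median log2 difference -0.07). That is a called share of 85.7%, beside 66.3% of all genes tested. Kit, the stem cell factor receptor, fell from 2046 ± 64.6 to 1631 ± 67.7 CPM (SD, n = 3) and Ly6a, which encodes Sca-1, rose from 186 ± 7.68 to 325 ± 50.1 CPM. Ctnnal1 fell from 85.3 ± 6.72 to 42.2 ± 4.82 CPM.

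Kinesins are motor proteins that use ATP to move along microtubules or to take them apart at their ends. One branch builds the mitotic spindle, moves chromosomes and helps to split the cell, and its genes are switched on as cells approach division. Other branches carry vesicles, mitochondria and signalling proteins through the cytoplasm, or build and signal through the primary cilium, and several of these are known best from neurons.

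The family split by role. Genes of the spindle and of cytokinesis were mostly higher in CDKO pools, and genes of cargo transport, of the cilium and most of the kinesin-2 group were lower. In bulk RNA, fewer cells of a type and less RNA per cell cannot be told apart, and neither can more cells in mitosis and more RNA per cell. Of the 33 described genes 10 rose and 18 fell (limma, Benjamini-Hochberg adjusted p under 0.05 over all 13729 genes tested). That is 28 called, or 84.8%, where 66.3% of all genes tested were called, 31.1% higher and 35.2% lower. The groups did not overlap for 29 members, against 70.7% of all genes, with CDKO pools above for 10 (33.5% of all genes) and below for 19 (37.2%). A mean CPM at least 1.5-fold higher with a call was seen in 7 members, against 13.2% of all genes, and at least 1.5-fold lower in 12, against 18.7%. At least 5-fold lower levels with a call were seen in 7 members, 21.2% of those described, where 5.58% of all genes had them. Kif1a and Kif27, which count in each of these tallies of lower members, passed the level through the control group alone. Low CDKO values in these 2 genes are therefore partly a result of the selection. All genes tested had passed the same level. The authors' deposited table also had 10 members higher and 18 lower at an adjusted p under 0.05, from the same libraries.

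**Figure D1:**
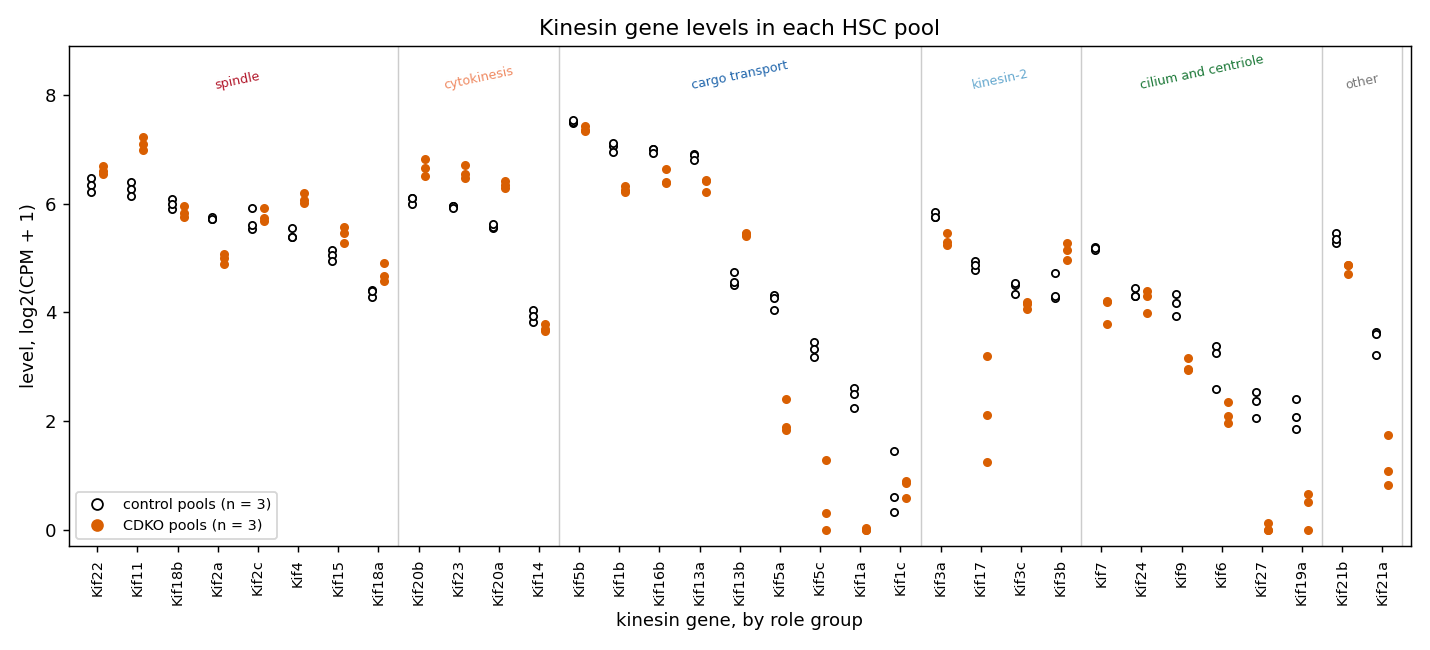
Level of each described kinesin gene on the log2(CPM + 1) scale (vertical axis) in the 3 control pools (open circles) and the 3 CDKO pools (filled circles), with genes placed by role and by control level. Most spindle and cytokinesis genes have their CDKO points above the control points, and Kif1a and Kif27 have CDKO points at or near 0.

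Among the spindle motors, 5 of 8 described genes rose and 1 fell, with a median difference of 0.32 in log2(CPM + 1), where the median over all genes tested was -0.02. Kif11 (also called Eg5, mm10 chromosome 19, 37376382 to 37421863), which slides antiparallel microtubules apart so that the spindle becomes bipolar, stood at 83.6, 76.4 and 69.7 CPM in controls and 149, 126 and 136 CPM in CDKO pools. All 3 CDKO pools lay above all 3 control pools, and the mean level was 1.79-fold higher (log2 difference 0.83, SE 0.08, limma adjusted p = 3.84e-06). Kif15 (chromosome 9, 122951081 to 123018733), which can stand in for Kif11 in keeping the spindle bipolar, rose less, from 34.6, 32.3 and 29.7 CPM to 43.0, 37.7 and 46.3 CPM, 1.31-fold (limma adjusted p = 0.00354).

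The chromokinesins and a motor that aligns chromosomes rose as well. Kif4 (chromosome X, 100626065 to 100727271), which binds chromosome arms and later the central spindle, was at 45.8, 40.9 and 40.9 CPM in controls and 72.2, 63.7 and 65.7 CPM in CDKO pools, a 1.58-fold rise (limma adjusted p = 1.70e-05). Kif22 (Kid; chromosome 7, 127027729 to 127042467), which pushes chromosome arms away from the poles, was at 87.6, 80.5 and 73.0 CPM in controls and 103, 92.4 and 96.4 CPM in CDKO pools, 1.21-fold (limma adjusted p = 0.00497). Kif18a (chromosome 2, 109280738 to 109341749), which damps chromosome movements at metaphase, went from 18.4, 20.2 and 19.9 CPM to 23.0, 24.5 and 29.1 CPM, 1.31-fold (limma adjusted p = 0.0103). In these 3 genes no CDKO pool overlapped a control pool. The Kif4 exons share 15.1% of their bases with Pdzd11 on the opposite strand, whose reads cannot be told apart without strand.

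Not every spindle motor followed. Kif18b (chromosome 11, 102905518 to 102925134), which shortens astral microtubules, was at 66.9, 59.0 and 62.4 CPM in controls and 61.3, 52.8 and 55.7 CPM in CDKO pools and missed the threshold (log2 difference -0.15, limma adjusted p = 0.0981). Leaving out CDKO replicate 1 brought it past the threshold, at a log2 difference of -0.20 (limma adjusted p = 0.0341), the only alternative fit that called it at the 0.05 threshold. Kif2c (MCAK; chromosome 4, 117159633 to 117182624), which frees wrongly attached kinetochores by dismantling microtubule ends, was at 59.8, 45.4 and 47.9 CPM and at 59.4, 52.2 and 50.1 CPM, with overlapping groups (limma adjusted p = 0.488). Its close relative Kif2a (chromosome 13, 106958996 to 107022355), which acts at spindle poles and also trims microtubules in non-dividing cells, fell from 51.5, 53.3 and 51.4 CPM to 30.9, 28.8 and 32.7 CPM, 1.69-fold lower (limma adjusted p = 6.65e-06). Of the Kif2a exon bases 19.2% overlap Dimt1 on the opposite strand.

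Start site sequence was compared because the members that rose together are known as genes of the dividing cell. RefSeq promoters (GRCm38.p6, the build called mm10; 250 bases before to 50 after the start) matched 31 of the 38 symbols. Kif13b, Kif20a, Kif5b, Kif21b, Kif5a, Kif19a and Kif4-ps had no entry. The letters TTTGAA, on either strand, are those of the cell cycle genes homology region (CHR), an element of genes that peak late in the cycle. Over the whole 300 bases they were present in 9 of 12 spindle and cytokinesis genes and in 3 of the other 19 kinesin genes, Kif26b and also Kif1a and Kif27, which fell. They lay within 30 bases of the start in 7 of 12 spindle and cytokinesis genes and in 1 of the other 19 kinesin genes (Kif26b). Of all 32851 promoters 2.90% held them in that window and 17.9% anywhere in the 300 bases, and the window was set after the matches had been seen. The letters TTTGGCGC, those of an E2F-type site, were found on either strand in 0.514% of all promoters and in Kif15 and Kif18a among the kinesins. Other letters were searched on both strands as well. CCAAT, the letters of an NF-Y site, was present in 14 of 31 kinesin genes and in 37.4% of all promoters. A variant of the first motif, TTCGAA, was found among the kinesins in Kif24 alone and in 1.56% of all promoters. No kinesin promoter held TTTCCCGC, found in 1.07% of all promoters. None held another E2F-type spelling, TTTCGCGC, found in 0.323%. The stretches from 60 bases before to 28 after the start are shown for the 7 spindle and cytokinesis genes with TTTGAA near the start and for Kif18a. That of Kif26b, which holds TTTGAA from position -9, is not shown. Then follow 3 members that fell over 5-fold, with both promoters listed for Kif1a, the second of which holds TTTGAA from position -44. Capitals mark TTTGAA or TTTGGCGC, read on either strand, so that a match on the other strand is written in its complement, and in Kif15 the pair lies side by side.
Kif11 (chr19:37376322-37376409, + strand): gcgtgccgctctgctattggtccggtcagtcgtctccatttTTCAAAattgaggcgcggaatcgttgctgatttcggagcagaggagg
Kif15 (chr9:122951021-122951108, + strand): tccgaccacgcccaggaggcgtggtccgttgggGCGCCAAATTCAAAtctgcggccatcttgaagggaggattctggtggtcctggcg
Kif18a (chr2:109280678-109280765, + strand): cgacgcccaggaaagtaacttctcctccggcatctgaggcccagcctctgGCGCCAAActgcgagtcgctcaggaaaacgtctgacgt
Kif18b (chr11:102925097-102925184, - strand): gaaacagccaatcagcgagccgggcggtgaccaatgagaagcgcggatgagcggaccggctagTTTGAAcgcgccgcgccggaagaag
Kif20b (chr19:34922298-34922385, + strand): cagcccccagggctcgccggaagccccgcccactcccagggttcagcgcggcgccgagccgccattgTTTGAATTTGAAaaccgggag
Kif22 (chr7:127042393-127042480, - strand): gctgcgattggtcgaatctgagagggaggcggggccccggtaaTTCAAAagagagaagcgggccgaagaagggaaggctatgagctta
Kif23 (chr9:61946772-61946859, - strand): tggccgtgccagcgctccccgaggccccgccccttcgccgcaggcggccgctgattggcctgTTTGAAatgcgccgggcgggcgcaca
Kif4 (chrX:100626005-100626092, + strand): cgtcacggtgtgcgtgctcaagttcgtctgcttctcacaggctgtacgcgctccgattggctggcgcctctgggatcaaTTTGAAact
Kif1a (chr1:93101847-93101934, - strand): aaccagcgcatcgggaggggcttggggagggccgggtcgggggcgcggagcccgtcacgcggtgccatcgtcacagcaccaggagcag
Kif1a, second promoter (chr1:93082453-93082540, - strand): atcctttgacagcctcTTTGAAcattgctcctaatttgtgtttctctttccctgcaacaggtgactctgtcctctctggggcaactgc
Kif17 (chr4:138262191-138262278, + strand): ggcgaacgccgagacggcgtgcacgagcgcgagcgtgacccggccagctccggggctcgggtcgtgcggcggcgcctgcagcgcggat
Kif21a (chr15:91049924-91050011, - strand): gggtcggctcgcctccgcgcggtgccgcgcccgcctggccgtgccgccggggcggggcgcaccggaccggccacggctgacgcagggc

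Counted from the start, with the first transcribed base as 1, TTTGAA began at position -19 in Kif11 and Kif15, -17 in Kif22, 3 in Kif23, 4 in Kif18b, 8 and 14 in Kif20b and 20 in Kif4. Of these 7 genes 6 rose in CDKO pools, where 31.1% of all genes tested did, and Kif18b did not pass the test. Of the 5 spindle and cytokinesis genes without the letters in that window, Kif18a rose, Kif2a fell, Kif14 and Kif2c did not pass, and Kif2b had no reads. Kif14 and Kif2c hold the letters outside the window, from positions -228 and -103. Since the window was set after the matches had been seen, these counts are no test of a link between letters and rise. A match describes the letters and not a bound site, and which start sites these HSC used was not tested.

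Motors of the central spindle and of cytokinesis rose in 3 of 4 cases, with a median log2 difference of 0.61. Kif20a (Mklp2; chromosome 18, 34624624 to 34633277), which brings the Aurora B complex to the central spindle, stood at 45.9, 46.8 and 48.4 CPM in controls and 84.4, 76.9 and 79.8 CPM in CDKO pools, 1.71-fold higher (log2 difference 0.76, SE 0.06, limma adjusted p = 1.54e-06). Kif23 (Mklp1; chromosome 9, 61917277 to 61946810), which forms the centralspindlin complex with Racgap1, was at 61.2, 61.2 and 59.3 CPM and rose to 103, 87.9 and 92.1 CPM, 1.56-fold (limma adjusted p = 9.12e-06). Kif20b (chromosome 19, 34922335 to 34975750), which acts in the final cut between daughter cells, went from 67.7, 62.9 and 68.0 CPM to 113, 99.3 and 90.04 CPM, 1.52-fold (limma adjusted p = 4.36e-05). In these 3 genes every CDKO pool lay above every control pool. Kif14 (chromosome 1, 136466301 to 136555938), which recruits citron kinase to the midbody, went the other way in level, at 15.4, 13.1 and 14.2 CPM in controls and 12.8, 11.7 and 11.9 CPM in CDKO pools. Its groups did not overlap, but it did not pass (log2 difference -0.22, limma adjusted p = 0.120). Kif20a shares 29.3% of its exon bases with Cdc23 on the opposite strand.

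Genes that work with these motors moved in the same libraries. Of 15 tested partners of the central spindle and cytokinesis 9 rose and 3 fell (median log2 difference 0.23). That is a called share of 80%, beside 66.3% of all genes, of which 31.1% were higher and 35.2% lower. Plk1 was at 45.3 ± 3.12 CPM in controls and 102 ± 6.70 CPM in the CDKO group (SD, n = 3). Racgap1, the partner of Kif23, rose from 80.2 ± 2.35 to 142 ± 6.30 CPM, and Aurkb, the kinase that Kif20a carries, from 61.0 ± 2.87 to 112 ± 8.103 CPM. Ect2, which Racgap1 activates to start the cleavage furrow, rose from 40.5 ± 5.45 to 82.5 ± 8.94 CPM. Of 21 genes of spindle assembly 8 rose and 4 fell (median log2 difference 0.06), a called share of 57.1%, under the 66.3% of all genes. Tacc3, Bora, Ncaph and Tpx2 had the smallest p among them and rose, Tpx2, which targets Aurora A and Kif15 to the spindle, from 84.0 ± 2.45 to 132 ± 12.9 CPM. Of 26 proliferation markers 19 rose and 2 fell (median log2 difference 0.30), a called share of 80.8% beside the 66.3% of all genes. The smallest p were those of Ccna2, Foxm1, Mcm6 and Ttk, which rose. Mki67 was among the 5 not called, at 327 ± 18.4 CPM in controls and 332 ± 23.4 CPM in CDKO pools (limma adjusted p = 0.775). The 2 that fell were Bub1b, from 105 ± 13.7 to 77.1 ± 6.93 CPM, and Rbl2, from 256 ± 7.93 to 233 ± 15.7 CPM. Ccna2, a cyclin of S and G2 phase, rose from 75.1 ± 5.71 to 144 ± 17.2 CPM, and Foxm1, a transcription factor that acts through CHR elements, from 46.7 ± 1.26 to 80.2 ± 6.72 CPM.

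**Figure D2:**
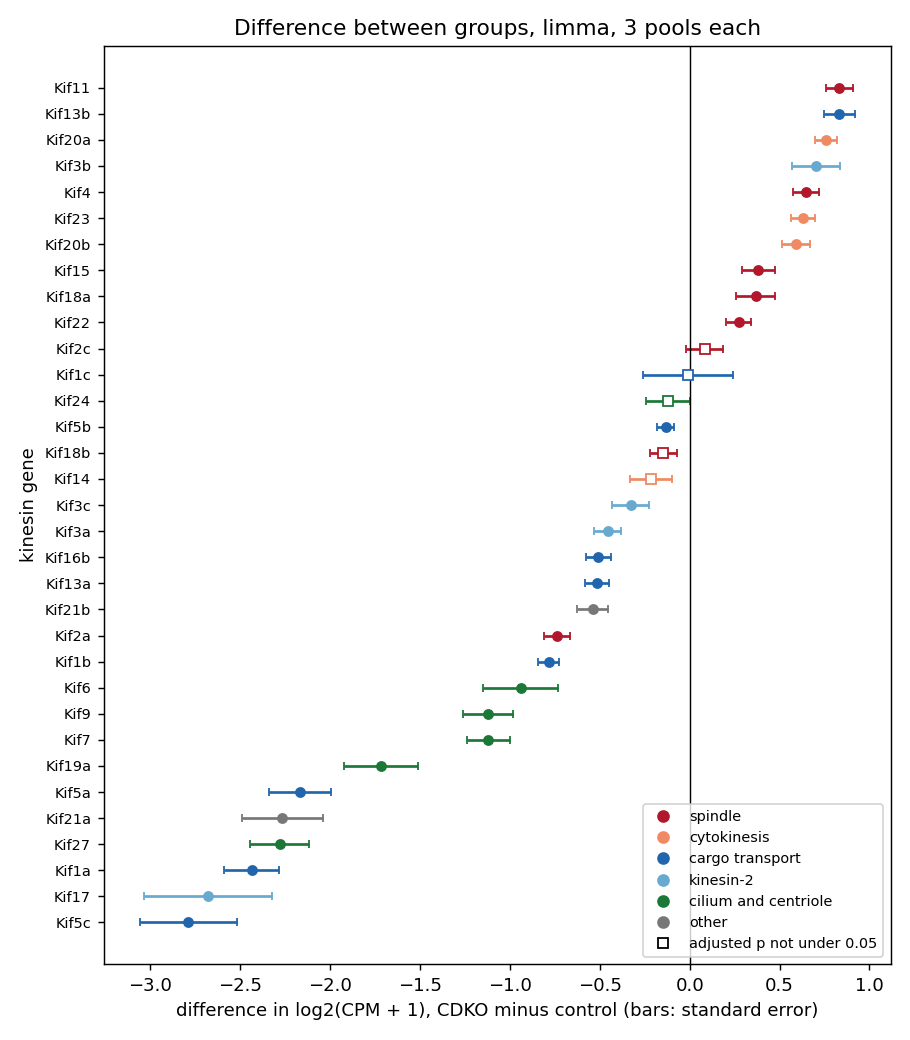
Difference in log2(CPM + 1), CDKO minus control (horizontal axis), with its standard error, for each described kinesin gene (vertical axis), coloured by role, with open squares for genes that did not pass. The 10 genes that rose include 8 of the spindle and cytokinesis groups, and the 6 lowest genes all lie under -2.

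Motors of cargo transport were the largest role group, with 9 described genes, of which 7 fell and 1 rose (median log2 difference -0.52). Kif5b (chromosome 18, 6201005 to 6241524), the conventional kinesin heavy chain made in most tissues, had the highest level per kilobase of exon among the kinesins in control pools. It was at 177, 180 and 186 CPM in controls and 161, 171 and 163 CPM in CDKO pools, 1.10-fold lower, with no overlap (limma adjusted p = 0.0199). That call was lost once GC content and length were corrected for (limma adjusted p = 0.138), without CDKO replicate 1 (limma adjusted p = 0.0599) or without control replicate 3 (limma adjusted p = 0.0765), with a range of 0.00559 to 0.138 over its alternatives.

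The 2 other conventional heavy chains, known best from neurons, fell far more. Kif5a (chromosome 10, 127225695 to 127266348) was at 19.0, 15.5 and 18.3 CPM in controls and 2.59, 4.32 and 2.69 CPM in CDKO pools, 5.52-fold lower (log2 difference -2.17, SE 0.17, limma adjusted p = 1.40e-06). Kif5c (chromosome 2, 49619286 to 49774778) was at 9.92, 9.02 and 8.099 CPM in control pools and, in CDKO pools, at 0 reads in replicate 1, 0.241 CPM in replicate 2 and 1.43 CPM in replicate 3. Its mean was 16.2-fold lower (limma adjusted p = 5.53e-06), and 74.8-fold lower without CDKO replicate 3. Of the light chains that bind these heavy chains, taken with the kinesin-2 accessory subunit Kifap3, 1 of 5 tested genes was called. That is 20%, beside 66.3% of all genes. Klc4 fell from 42.5 ± 0.993 to 30.8 ± 3.14 CPM, while Klc1 was at 63.8 ± 5.72 and 64.8 ± 2.75 CPM, Klc2 at 7.22 ± 1.32 and 6.85 ± 0.791 CPM and Klc3 at 4.41 ± 0.567 and 4.03 ± 0.839 CPM in controls and CDKO pools, and none of these 3 passed.

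The kinesin-3 motors divided as well. Kif1b (chromosome 4, 149176319 to 149307773), which carries mitochondria and synaptic vesicle precursors, fell from 132, 123 and 138 CPM to 75.3, 72.8 and 78.6 CPM, 1.73-fold (limma adjusted p = 8.37e-07). Kif1a (chromosome 1, 93015455 to 93102039), the vesicle motor of axons, held 200, 136 and 196 reads in control pools (5.11, 3.73 and 4.63 CPM) and 0, 0 and 1 reads in CDKO pools (limma adjusted p = 3.68e-07). The ratio of control to CDKO rates was 528 (exact 95% interval 94.4 to 20907, counting error only). That interval adds up the reads of each group and holds no spread between pools. Kif1a passed the level through the control group alone, so its low CDKO values are partly a result of the selection. Without CDKO replicate 3, which held the single read, the level was at least 49.2-fold lower, set against the floor of 3 reads in 1 library. Kif1c, another motor of this branch, was near the lower limit at 0.256, 1.73 and 0.519 CPM in controls and 0.822, 0.506 and 0.865 CPM in CDKO pools and missed the threshold (limma adjusted p = 0.979), with a sign that turned under several alternatives.

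Kif16b and Kif13a fell by like amounts, and Kif13b rose. Kif16b (chromosome 2, 142618340 to 142901609), which moves early endosomes, was at 128, 128 and 120 CPM in controls and 83.5, 82.4 and 98.0 CPM in CDKO pools, 1.42-fold lower (limma adjusted p = 5.26e-05). Kif13a (chromosome 13, 46749087 to 46929917), which moves recycling endosomes, was at 119, 119 and 111 CPM and then 85.9, 84.8 and 72.8 CPM, 1.43-fold lower (limma adjusted p = 4.60e-05). Kif13b (chromosome 14, 64652492 to 64809618), a related motor known for carrying PIP3-binding and receptor cargo, rose from 21.7, 25.8 and 22.7 CPM to 42.4, 41.2 and 43.3 CPM, 1.81-fold (log2 difference 0.83, SE 0.09, limma adjusted p = 8.77e-06). Kif13b was the only cargo motor of the 9 with CDKO pools above all control pools.

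Of 17 tested adaptors that tie cargo to kinesins 9 fell, 3 rose and 5 were not called (median log2 difference -0.44), a called share of 70.6% beside the 66.3% of all genes. Fez2, a kinesin-1 adaptor, was the one with the smallest p and rose, from 21.7 ± 1.23 to 55.0 ± 2.90 CPM. Disc1, a scaffold that binds kinesin-1 cargo, fell from 3.59 ± 0.428 to 0.108 ± 0.116 CPM. Both Rhot1 (140 ± 2.30 CPM in controls, 80.6 ± 7.64 CPM in CDKO pools) and Trak2 (84.7 ± 6.21 and 41.3 ± 5.13 CPM), which link mitochondria to kinesin-1, fell.

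The kinesin-2 motors, which drive transport inside cilia and also carry cargo in cells without them, changed in opposite directions. Kif3a (chromosome 11, 53565701 to 53604248), the shared subunit of the heterodimers, fell from 52.7, 56.8 and 53.2 CPM to 38.2, 42.8 and 37.0 CPM, 1.38-fold (limma adjusted p = 2.58e-04). Kif3b (chromosome 2, 153291395 to 153333390), its usual partner, rose from 18.2, 18.7 and 25.4 CPM to 34.6, 37.9 and 30.1 CPM, 1.65-fold (limma adjusted p = 6.19e-04). Kif3c (chromosome 12, 3365132 to 3406494), the alternative partner, went from 19.3, 21.6 and 22.2 CPM to 16.9, 17.2 and 15.6 CPM, 1.27-fold lower (limma adjusted p = 0.0155). The Kif3c call was lost after the GC and length correction (limma adjusted p = 0.0942) and without control replicate 2 (limma adjusted p = 0.0544) or control replicate 3 (limma adjusted p = 0.0600), with a range of 0.00152 to 0.0942 over its alternatives. Its exons share 35.3% of their bases with the antisense gene 1110002L01Rik. Kifap3, the accessory subunit that binds the heterodimer, stood at 40.3 ± 1.67 and 40.2 ± 4.21 CPM and missed the threshold (limma adjusted p = 0.918).

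Kif17 (chromosome 4, 138262251 to 138301973), the homodimeric kinesin-2 motor of dendrites and cilia, fell most within the kinesin-2 group. It was at 29.7, 26.5 and 28.3 CPM in controls and 1.37, 3.33 and 8.14 CPM in CDKO pools, 6.58-fold lower (log2 difference -2.68, SE 0.35, limma adjusted p = 5.04e-05). The control pools were close together and the CDKO pools were spread over a wide range with replicate 3 highest, and without that library the mean was 11.99-fold lower.

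Kinesins of the cilium and centriole fell in 5 of 6 described genes, with a median log2 difference of -1.12. Kif7 (chromosome 7, 79698098 to 79715772), which organises the tip of the cilium and controls Gli factors in Hedgehog signalling, was at 36.0, 34.4 and 35.4 CPM in controls and 12.7, 17.2 and 17.4 CPM in CDKO pools, 2.23-fold lower (log2 difference -1.12, SE 0.12, limma adjusted p = 1.02e-05). Kif27 (chromosome 13, 58284727 to 58364745), its vertebrate paralog, was at 3.17, 4.17 and 4.82 CPM in control pools, and the CDKO pools held 0, 0 and 4 reads (limma adjusted p = 7.95e-07). Without CDKO replicate 3 the Kif27 level was at least 44.4-fold lower, set against the floor of 3 reads in 1 library. Kif27 too passed the level through the control group alone. The Kif7 exons share 19.1% of their bases with the antisense gene 9330171B17Rik.

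Kinesins known from motile cilia fell as well. Kif9 (chromosome 9, 110476738 to 110525174) was at 17.0, 14.2 and 19.1 CPM in controls and 7.94, 6.68 and 6.80 CPM in CDKO pools, 2.35-fold lower (limma adjusted p = 3.15e-05). Kif6 (chromosome 17, 49615098 to 49909847), needed for cilia of the brain ventricles, was at 9.41, 8.58 and 5.01 CPM and then 2.89, 4.10 and 3.27 CPM, 2.24-fold lower (limma adjusted p = 0.00190). Kif19a (chromosome 11, 114764970 to 114791166), which limits cilium length, was at 4.27, 2.63 and 3.21 CPM and then at 0 reads, 0.434 and 0.584 CPM, 9.93-fold lower (limma adjusted p = 2.49e-05), or 15.5-fold without CDKO replicate 3. Each of these 3 genes had its highest CDKO pool under its lowest control pool. Kif24 (chromosome 4, 41389964 to 41464919), which holds back cilium formation at the mother centriole in cycling cells, was at 20.8, 18.6 and 18.7 CPM and at 20.0, 14.9 and 18.8 CPM, with overlapping groups (limma adjusted p = 0.409).

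Genes of intraflagellar transport and Hedgehog signalling were mixed as a list, with 7 higher and 10 lower of 25 tested (median log2 difference -0.11), a called share of 68.0%. The Hedgehog effectors Gli3 and Gli2 had small p and fell, Gli3 from 4.69 ± 1.02 to 0.134 ± 0.0528 CPM and Gli2 from 2.39 ± 0.335 CPM to a mean under the floor of 3 reads. Smo, the signal transducer of the pathway, fell from 132 ± 2.77 to 76.4 ± 6.56 CPM, and Ift88, a core transport subunit, from 28.8 ± 0.852 to 15.7 ± 1.01 CPM.

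Of the remaining members, Kif21a and Kif21b, which limit microtubule growth, both fell. Kif21b (chromosome 1, 136131390 to 136178001) was at 37.8, 43.0 and 39.7 CPM in controls and 28.4, 28.4 and 25.2 CPM in CDKO pools, 1.47-fold lower (limma adjusted p = 2.02e-04). Kif21a (chromosome 15, 90933275 to 91050382) was at 8.31, 11.4 and 11.1 CPM and then 0.761, 2.36 and 1.12 CPM, 7.26-fold lower (limma adjusted p = 6.65e-06), or 10.9-fold without CDKO replicate 2. Kif26a held 0, 0 and 33 reads in controls and 0, 0 and 1 in CDKO pools, and Kif26b held 0 reads in control pools and 2, 8 and 4 in CDKO pools. Both lay under the level for testing, and with no filter Kif26b was called higher (limma adjusted p = 0.0320) on those 14 reads.

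Several kinesins carry symbols that the choice by name leaves out, and they showed the same variety. Cenpe, the kinetochore motor that gathers chromosomes at the spindle equator, was at 50.9, 54.1 and 54.7 CPM in controls and 88.6, 78.6 and 80.8 CPM in CDKO pools and rose (log2 difference 0.62, SE 0.06, limma adjusted p = 8.32e-06). The minus-end motor Kifc1, which focuses spindle poles, was at 6.86 ± 1.66 and 8.56 ± 1.86 CPM and missed the threshold (limma adjusted p = 0.187). Kifc5b missed it as well, at 4.02 ± 0.226 and 4.14 ± 0.777 CPM (limma adjusted p = 0.906). Kifc3 fell from 2.91, 2.85 and 4.79 CPM to 0.0609, 1.04 and 2.13 CPM (limma adjusted p = 0.00560). Kifc2 was called higher (limma adjusted p = 0.0277), but its control pools ran from 0.0767 to 3.66 CPM and overlapped the CDKO pools at 3.09 to 4.503 CPM.

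Dynein and dynactin, the motor complex that walks the opposite way, had 7 genes higher and 7 lower of 26 tested, a called share of 53.8% and a median log2 difference of -0.07. Dynlt3 fell from 95.6 ± 3.87 to 56.9 ± 2.11 CPM, Dync1i2 fell from 71.8 ± 2.65 to 50.004 ± 2.81 CPM, and Dynll1 rose from 79.2 ± 3.28 to 109 ± 3.62 CPM. The dynein regulator Nde1 rose from 112 ± 1.09 to 144 ± 2.07 CPM. The tubulins, the subunits of the track, had 8 genes higher and 3 lower of 15 tested (median log2 difference 0.32), a called share of 73.3% beside the 66.3% of all genes. Tubb5, the most abundant of them, was not called, at 756 ± 58.4 CPM in controls and 816 ± 50.2 CPM in CDKO pools. Tuba8 rose from 15.9 ± 1.64 to 46.5 ± 2.18 CPM, Tubb1, the platelet tubulin, from 2.45 ± 0.243 to 8.84 ± 0.902 CPM and Tubb6 from 21.1 ± 0.777 to 34.9 ± 4.00 CPM, and Tubb4a, a neuronal tubulin, fell from 5.9995 ± 0.206 to 2.68 ± 0.282 CPM.

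**Figure D3:**
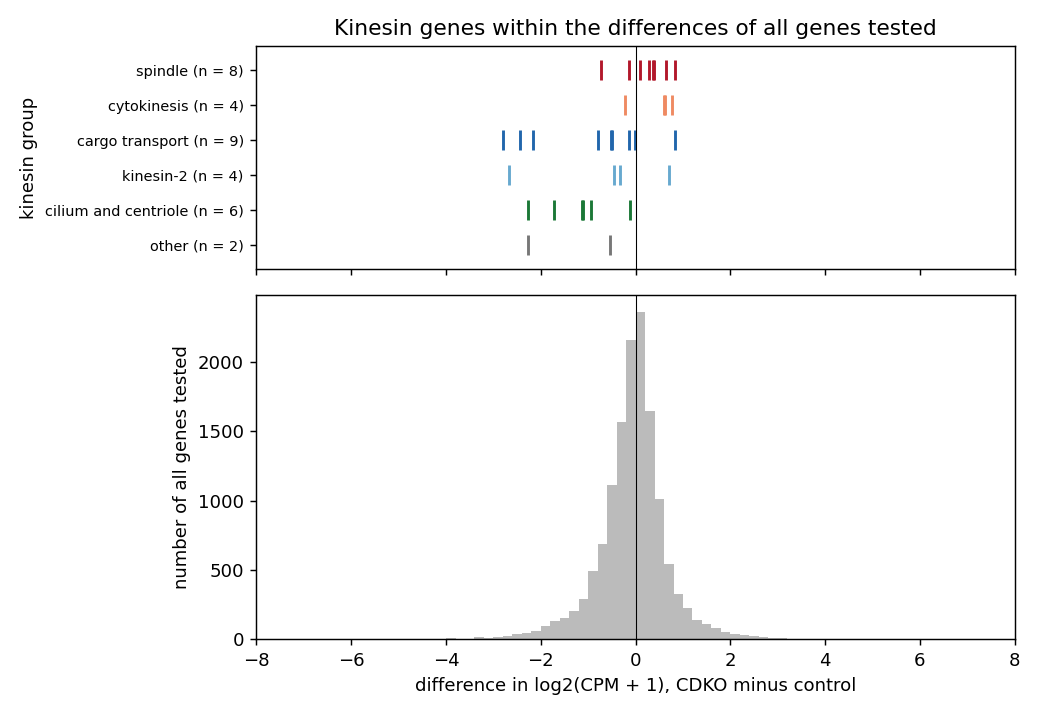
Upper panel, the difference in log2(CPM + 1), CDKO minus control, of each described kinesin gene as a tick, in 1 row for each role group; lower panel, the number of all 13729 genes tested in bins of that difference. Ticks of the spindle and cytokinesis rows lie mostly right of 0, and cargo, kinesin-2 and cilium rows reach below -2, into the thin left tail of all genes.

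The make-up of the family's summed level differed between groups. All kinesin genes together summed to 1507, 1457 and 1461 CPM in controls and 1470, 1386 and 1411 CPM in CDKO pools, with overlapping groups (exact two-sided permutation p = 0.30 over 3 against 3 pools, where 0.10 is the smallest possible). The spindle and cytokinesis genes held 42.4%, 40.6% and 40.0% of that sum in controls and 58.2%, 54.4% and 55.7% in CDKO pools (exact two-sided permutation p = 0.10, the smallest this design allows). The cargo motors summed to 609 ± 3.75 CPM in controls and 456 ± 4.69 CPM in CDKO pools, and the cilium and centriole group to 86.5 ± 4.01 and 44.6 ± 2.06 CPM.

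Within sets of close relatives the balance shifted, shown by shares of the summed CPM per kilobase of merged exon. Kif5b made up 84.3%, 86.6% and 86.1% of the 3 conventional heavy chains in controls and 98.2%, 97.0% and 97.2% in CDKO pools. The share of Kif3b among Kif3a, Kif3b and Kif3c was 15.7%, 15.05% and 20.2% in controls and 32.2%, 32.0% and 30.1% in CDKO pools. Kif13b against Kif13a went from 11.1% ± 0.856 to 24.6% ± 2.10 (SD, n = 3), Kif21b against Kif21a from 67.7% ± 2.76 to 91.3% ± 4.44, and Kif2c against Kif2a from 58.8% ± 3.83 to 71.9% ± 2.37. Smaller shifts were those of Kif20a against Kif20b, from 53.3% ± 1.12 to 56.2% ± 2.17, and of Kif3c within its set, from 13.1% ± 0.397 to 11.6% ± 0.470. In each of the 10 shares computed the groups did not overlap, for which the exact two-sided permutation p is 0.10, the smallest possible. Of all single genes tested 70.7% did not overlap either. The 10 shares are not independent, since those of Kif3a, Kif3b and Kif3c divide the same sum. In the annotated transcripts, Kif5a, Kif5c, Kif3b, Kif13a, Kif21a, Kif21b and Kif20b shared no 50-base stretch with any other gene's transcripts. The other genes of the sets named did share some, read on either strand. Of its 50-base stretches Kif3c shared 39.6%, Kif20a 25.2%, Kif2a 19.7%, Kif5b 3.90%, Kif2c 2.90%, Kif3a 1.06% and Kif13b 0.0230%. A share shows unequal change and does not say which gene of a set moved.

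**Figure D4:**
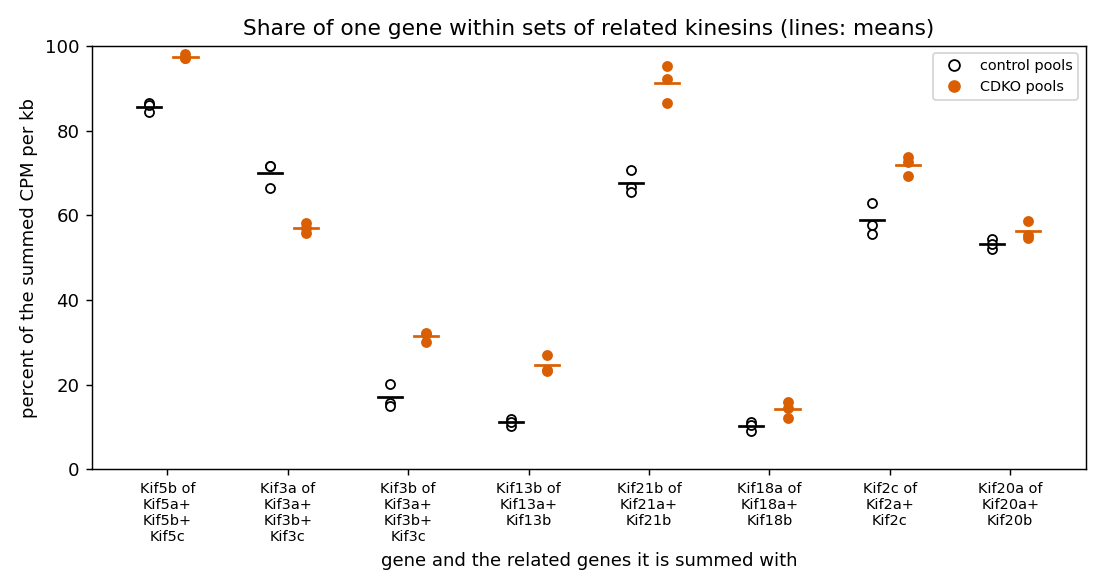
Share of 1 gene in the summed CPM per kilobase of exon of its close relatives, in percent (vertical axis), in each control pool (open) and CDKO pool (filled), with lines at the means. Kif3b rises from about 17.0% to 31.4% of its set while Kif3a goes from 69.9% to 57.0%.

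By level per kilobase, Kif5b came first in control pools, at 22.7 ± 0.584 CPM per kilobase. In CDKO pools Kif5b at 20.6 ± 0.663 and Kif22 at 19.8 ± 1.06 CPM per kilobase did not differ beyond their spread. In control pools Kif18b followed at 17.6 ± 1.11 and Kif22 at 16.4 ± 1.48 CPM per kilobase, which do not differ beyond their spread. Kif20a and Kif11 were at 10.8 ± 0.283 and 10.3 ± 0.930 CPM per kilobase in control, within their spread of each other, and at 18.5 ± 0.872 and 18.4 ± 1.58 CPM per kilobase in CDKO pools, where they ranked 3 and 4 of 33. Kif17 ranked 16 in control at 6.14 ± 0.352 CPM per kilobase and 25 in CDKO pools at 0.934 ± 0.760. Merged exon length counts every annotated exon, used in HSC or not.

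Markers of other blood cells moved in the same libraries, and their part in the kinesin differences was not tested. Neutrophil markers fell in 11 of 13 cases, with a median log2 difference of -3.99, and their summed level was 1184 to 1457 CPM in controls and 239, 257 and 415 CPM in CDKO replicates 1, 2 and 3. Prtn3, which was not called, made up 204 ± 11.99 CPM of that sum in controls and 193 ± 15.9 CPM in CDKO pools. Erythroid markers fell in 6 of 8 tested (median log2 difference -3.59). They summed to 540 to 598 CPM in controls and to 121, 121 and 149 CPM in the CDKO replicates. Of the CDKO sums the uncalled Tfrc and Epor held 62.1 ± 6.34 and 30.4 ± 1.88 CPM. The globin genes Hba-a1 and Hbb-bt had 0 reads in every library, and Hbb-bs had 1 read over all libraries. With Cma1 and Tpsb2 at 0 reads in every library, markers of basophils, mast cells and eosinophils fell in 7 of 8 tested (median log2 difference -3.59). Their sums were 884 to 911 CPM in controls and 489, 469 and 466 CPM in the CDKO replicates, and nearly all of the latter was Gata2, which was not called, at 475 ± 12.3 and 459 ± 13.7 CPM. The basophil gene Prss34 went from 163 ± 21.6 CPM down to 0.179 ± 0.263 CPM (limma adjusted p = 3.91e-10). Of the 7 kinesins at least 5-fold lower, Kif5c, Kif17 and Kif19a had their highest CDKO value in replicate 3 and Kif5a and Kif21a in replicate 2, while Kif1a and Kif27 had 1 and 4 reads, all in replicate 3. Megakaryocyte markers rose in 8 of 10 tested, with sums of 1738 to 1855 CPM and 1792 to 1894 CPM. Monocyte and macrophage markers were 4 higher and 3 lower of 8, with sums of 61.3 to 67.5 CPM and 68.2 to 74.5 CPM. T and NK cell markers were 4 higher and 0 lower of 5 tested, with Cd3e, Cd3g and Cd8a at 0 reads, and B cell markers 1 higher and 3 lower of 6 tested, with Pax5 and Ms4a1 at 0 reads. Of all genes tested 66.3% were called, 31.1% higher and 35.2% lower. Beside that, called shares were 84.6% for neutrophil, 75% for erythroid and 87.5% for basophil, mast cell and eosinophil markers. They were 90% for megakaryocyte, 87.5% for monocyte and macrophage, 80% for T and NK cell and 66.7% for B cell markers.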

How the data were processed

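Per the labels' protocols, RNA from pooled HSC was extracted on micro columns, amplified by the SMARTer method and prepared for sequencing by Nextera XT. Per the submitters' processing notes the tools were TopHat2, HTSeq and DESeq2 (versions not given) and the build mm10; the annotation and strand setting are not given in the sources used here. The deposited values per library are CPM, and 100.0% of nonzero values came out as whole reads (tolerance 0.01 read). Also deposited was baseMean, a mean signal per gene, not used here. The deposited log2 fold change sets control over CDKO, the deposited stat is a score, and the deposited adjusted p-value was used for 1 count.

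All genes with a mean of at least 0.25 CPM were tested with limma 3.58.1 (R 4.3.3) on log2(CPM + 1), eBayes with a mean-variance trend, CDKO minus control, two-sided, Benjamini-Hochberg threshold 0.05. Folds are ratios of mean CPM. Left out were 12 rows with a date for a symbol and 2 rows sharing a symbol. The fit was tested on simulated data. Coordinates and promoters are RefSeq GRCm38.p6; exon lengths and overlaps are GENCODE on the same build. Members and lists were chosen with earlier results of these data known. All members found are accounted for by name. Values in each pool are given for spindle, cytokinesis and kinesin-2 members and, in other role groups, for those past the threshold and the most abundant; those of Kif1c, Kif24, Kif26a and Kif26b were added after values were seen. In partner lists up to 4 genes with the smallest p were named. Kifap3, Mki67, Bub1b, Rbl2, Tubb5 and the cell type markers named were added after values were seen. Alternatives were a replicate block, leaving out each library, other filters, pseudocounts and scalings, edgeR 4.0.16, DESeq2 1.42.0, a GC and length correction, a 1.5-fold minimum and a threshold of 0.1.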

Additional observations from a re-analysis of the deposited data

How the results depend on the processing

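Of the 28 kinesin genes called, 26 kept their side of the threshold and their direction in every fit that tested them, over 18 alternative fits, and Kif5b and Kif3c did not. Over those fits the number of members called ran from 22 of 26 tested, with a filter at a mean of 10 CPM, to 29 of 35 with no filter, which added Kif26b; leaving out 1 library at a time it ran from 26 to 28, with 10 higher and 16 to 18 lower. A threshold of 0.1 called 29, and a 1.5-fold minimum called 19. Over all genes the 1.5-fold minimum left 4388 of 9098 calls, 1817 higher and 2571 lower; leaving out 1 library gave 8273 to 8693. The log2 difference of Kif1c, which was not called, turned from -0.01 to 0.11 with the GC and length correction, 0.14 and 0.027 with pseudocounts of 0.1 and 0.5 CPM, 0.17 with quantile normalization, and 0.09 without CDKO replicate 2, and leaving out 1 library at a time it ran from -0.24 to 0.32 (without control replicates 1 and 2). That of Kif24, also not called, ran from -0.20 to 0.0011 (without CDKO replicates 1 and 2). The causes of these turns were not tested. No scaling moved the median of all genes by over 0.1. With replicate number as a block 28 members and 9245 genes were called; libraries with the same number correlated in their deviations at 0.0180, 0.0388 and -0.0219, so the numbers were not treated as pairs. Members under a few CPM rest on few reads, and their log2 differences depend on the pseudocount. The folds, which are ratios of mean CPM without a pseudocount, depended on 1 library in some of these members. They did so also in Kif17 and Kif21a, which stood higher in control pools.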
